A study of Mus musculus with 6 samples.

Results

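Cxcl14 and C3 fibroblasts are a set of matrix-making cells in injured mouse quadriceps. They were chosen by their transcripts: a barcode with at least 500 genes and at most 15% mitochondrial UMIs (unique molecular identifiers, each 1 captured RNA molecule) in which Col1a1, Col1a2, Col3a1, Dcn, Lum and Postn held at least 2% of UMIs, with Ptprc and Tnmd at 0, with Cxcl14, C3 and Spon1 all detected, and with at most 2 of 5 adventitial genes (Pi16, Sema3c, Cd248, Tnxb, Dpp4) and at most 2 of 4 cycling genes (Top2a, Mki67, Birc5, Ube2c). A total of 449 of 60282 deposited barcodes met this rule, out of 10958 that met every clause but the one on Cxcl14, C3 and Spon1, called gated fibroblasts here. By library they numbered 71, 155 and 100 in the 3 CLL mice, against 93, 25 and 5 in the 3 SHAM mice, in replicate order.

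All 6 mice carried Cdh5-CreERT2, a recombinase driven by an endothelial promoter that works only with tamoxifen, and the R26R-tdTomato reporter, and in all 6 the quadriceps was injured with cardiotoxin and taken 5 days later. CLL mice received clodronate liposomes into a vein, which kill phagocytes and, by the study's own description, removed blood monocytes only in part and so limited macrophage entry, and SHAM mice received the same liposomes filled with PBS. Both kinds of liposome were injected on the day before the injury (1 day) and again 2 days after it. Each group had 3 mice and each library came from its own mouse, so p-values measure the spread between mice. Sex, age and the timing of tamoxifen are not stated in the labels.

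Stromal fibroblasts of skeletal muscle, often called fibro-adipogenic progenitors, carry the PDGF receptor Pdgfra, lie between the fibres and around vessels, build matrix after injury, and can form fat when repair goes wrong. Macrophages that clear the damaged fibres also limit how many of these cells persist. Cxcl14 is a chemokine of resting stroma, C3 is the central component of the complement cascade, Spon1 encodes the matrix protein F-spondin, and Sfrp1 encodes a secreted protein that binds Wnt ligands.

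Depth differed between libraries, and some stood apart. Deposited totals were 58625420 to 75130565 UMIs in CLL and 23873416 to 94841003 UMIs in SHAM. A median Cxcl14 and C3 fibroblast held 25998, 14228 and 17053 UMIs in CLL replicates 1 to 3, against 5251, 19538 and 30342 in SHAM replicates 1 to 3. CLL replicate 2 and SHAM replicate 3 held many shallow barcodes, with a median of 1855.5 and 1476 UMIs in their other gated fibroblasts. SHAM replicate 3 had too few members for a sum over cells (5, under a minimum of 10), so expression was tested in 3 CLL against 2 SHAM libraries, and its values are given as a description. SHAM replicate 1 was shallow in members and carried transcripts of other cells. A call that leaving it out ended, and a printed fold that it moved by more than 1.5 times, are therefore given without it too. Of its members 23 of 93 (24.7%) were flagged as likely doublets, as were 24.2% of its other gated fibroblasts. The highest shares in any other library were those of CLL replicate 2, 5.81% of members and 13.6% of other gated fibroblasts. The share flagged, by highest score, was set in advance at 0.8% per 1000 deposited barcodes. SHAM replicate 1 had the most deposited barcodes (25024), so this contrast does not show that it held more doublets. In all, 362 barcode sequences occurred in more than 1 library. None was a member in more than 1, and 5 members had a barcode that also occurred elsewhere.

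The rule decided the levels of Cxcl14, C3 and Spon1, so these are a description. It asks for at least 1 UMI of each gene, which weighs more in shallow cells such as members of SHAM replicate 1. Expression is given as CPM, the summed UMIs of a gene scaled to a fixed total of UMIs in the same cells. Cxcl14 stood at 574, 442 and 486 CPM in members of CLL replicates 1 to 3, against 859, 819.6 and 682 CPM in SHAM replicates 1 to 3. C3 stood at 269.5, 382 and 262 CPM in CLL and 329.5, 233 and 83.9 CPM in SHAM. Spon1 stood at 196, 316 and 178 CPM in CLL and 313, 178 and 57.7 CPM in SHAM. Cxcl14 was lower in every CLL library than in any SHAM library, while C3 and Spon1 overlapped between the groups. A test of these 3 genes is possible only where they did not choose the cells, over all gated fibroblasts, and there, in 13867 genes of which 14.9% were called (7.05% higher and 7.84% lower in CLL), none of the 3 passed (edgeR, adjusted p = 0.365 for Cxcl14, 0.238 for C3 and 0.116 for Spon1, with log2 folds of -0.53, 0.77 and 0.63).

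The label was then checked against the data. Pdgfra, the defining receptor of muscle stromal cells, was present in members of all 6 libraries, at 119.5, 88.6 and 113 CPM in CLL and 247, 247 and 325 CPM in SHAM. Sfrp1, a marker that the rule did not use, stood at 592, 747 and 689.6 CPM in members of CLL libraries and 355, 368 and 331 CPM in their other gated fibroblasts. In SHAM libraries it stood at 383, 744 and 262 CPM in members and 122, 157 and 104 CPM in other gated fibroblasts. The 4 marker genes were not private to these cells. Fibroblasts with at least 3 adventitial genes, which form the sheath layer of vessels and muscle, had C3 at 328, 637 and 250.5 CPM in CLL and 103, 245 and 125 CPM in SHAM, a level that overlapped that of members. Their Sfrp1 stood at 351, 292 and 345 CPM in CLL and 130, 189 and 380 CPM in SHAM. That was below members of the same library except in SHAM replicate 3, where it was above them.

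**Figure D1:**
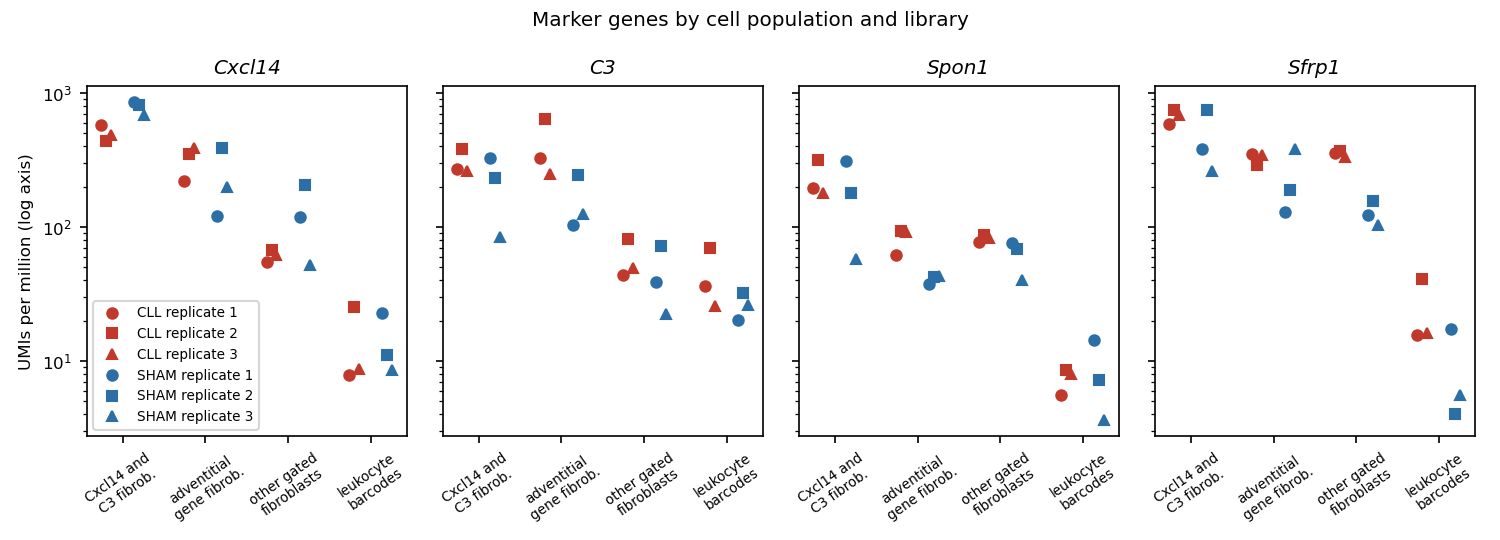
CPM (log axis) of the 4 marker genes in Cxcl14 and C3 fibroblasts, fibroblasts with at least 3 adventitial genes, other gated fibroblasts and leukocyte barcodes; each point is 1 library, CLL left of SHAM. Cxcl14 in the chosen cells lies between 442 and 859 CPM, above every other population. The ranges of C3, Spon1 and Sfrp1 overlap those of the adventitial fibroblasts.

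Free RNA can set a floor under such a rule. As a rough guide, leukocyte barcodes (Ptprc detected, matrix genes under 2% of UMIs) were drawn down to 2000 UMIs per cell together with the fibroblasts. The fibroblast gate was applied to the drawn counts. Cxcl14 was then detected in 1.63%, 1.35% and 1.44% of leukocyte barcodes in CLL and 3.36%, 1.84% and 1.62% in SHAM. Among gated fibroblasts it was detected in 7.90%, 12.2% and 9.72% in CLL and 13.9%, 26.3% and 12.05% in SHAM. C3 lay closer to its detection in leukocyte barcodes: 5.81%, 9.71% and 6.13% of leukocyte barcodes in CLL and 3.6%, 6.20% and 4.05% in SHAM, against 10.2%, 16.97% and 11.9% of gated fibroblasts in CLL and 7.15%, 16.6% and 5.22% in SHAM. At full depth 1 leukocyte barcode of SHAM replicate 3 held 108 C3 UMIs. Whether leukocyte barcodes held C3 as free RNA, from doublets or as their own transcript was not tested. Spon1 was detected in 0.810% to 2.53% of leukocyte barcodes and in 7.63% to 16.8% of gated fibroblasts over the 6 libraries. Detection in gated fibroblasts was above that in leukocyte barcodes for all 3 genes in all 6 libraries.

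The threshold on the 3 genes is a narrow one. Of the 449 members, 281 held exactly 1 UMI of at least 1 of the 3 genes, and 29 held exactly 1 UMI of each. Just outside the rule, 485 gated fibroblasts lacked only Cxcl14, 417 lacked only C3 and 340 lacked only Spon1. On the adventitial side, 197 members held 2 of the 5 genes, and 72 barcodes with all 3 markers held 3 and were left out. On the cycling side, 30 members held 2 of the 4 genes, and 12 barcodes with 3 were left out.

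Whether these cells made up a different part of the stroma after monocyte ablation was asked per mouse. They were 8.61%, 4.29% and 6.82% of gated fibroblasts in CLL replicates 1 to 3, against 2.08%, 11.4% and 1.36% in SHAM replicates 1 to 3. The CLL values lie inside the SHAM range. The share was 6.57 ± 2.17% in CLL and 4.94 ± 5.58% in SHAM (SD, n = 3 each), a difference of 1.64 percentage points with an exact two-sided permutation p of 0.70, where 0.10 is the smallest that 3 against 3 can give. SHAM replicate 2 set the SHAM mean, with 25 of 220 cells (95% exact binomial interval 7.49% to 16.3%, counting error only), and without it the difference was 4.85 points. Without SHAM replicate 3 it was -0.15 points. Of all barcodes past the quality limits, members made up 2.00%, 1.94% and 1.78% in CLL mice, against 0.412%, 1.47% and 0.324% in SHAM, without overlap (exact p = 0.10, the smallest possible). That share also moves with the share of fibroblasts among all barcodes.

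Detecting 3 genes depends on depth, so the rule was applied again after drawing every cell down to 2000 UMIs. It then found 6 of 1393, 31 of 2404 and 12 of 2078 gated fibroblasts in CLL replicates 1 to 3 and 19 of 4361, 2 of 350 and 0 of 249 in SHAM replicates 1 to 3. Shallower cells were left out, 88, 1894 and 233 gated fibroblasts in CLL and 1265, 22 and 232 in SHAM. Barcodes that failed the gate at full depth also entered, 661, 699 and 856 in CLL and 1236, 152 and 114 in SHAM, and 482, 494 and 637 of these in CLL and 910, 77 and 68 in SHAM had lost their Ptprc or Tnmd UMIs in the draw. The shares found were 0.431%, 1.29% and 0.577% for CLL, against 0.436%, 0.571% and 0% for SHAM, where the 0 allows a share of up to 1.20%. The groups overlapped (0.766 ± 0.459% in CLL and 0.336 ± 0.299% in SHAM, difference 0.430 points, exact p = 0.30). With the gate kept at full depth and only the 3 genes looked for in 2000 UMIs, an alternative added after seeing the data, the shares were 0.543%, 1.16% and 0.487% in CLL mice and 0.531%, 0% and 0% in SHAM mice, where 0 of 198 and 0 of 135 allow up to 1.52% and 2.22% (exact p = 0.20). A difference in the share of these cells was not detectable with 3 mice a group.

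Cxcl14 and C3 fibroblasts were set against other gated fibroblasts of the same library, which leave out the adventitial cells, and Serpina3n, Il33 and Cfb were among the genes steadily higher in them. Since the same cells were sorted into members and others by their own transcripts, this is a description without a test, over the 5 libraries with at least 10 members. Serpina3n, which encodes a secreted inhibitor of serine proteases, was higher in members by a log2 difference of 2.73, 2.48 and 2.32 in CLL libraries and 3.57 and 1.49 in SHAM libraries. Il33, an alarm cytokine that muscle stroma holds for regulatory T cells, was higher by 1.40, 1.24 and 1.16 in CLL and 1.14 and 1.19 in SHAM. Both were higher in all 5 libraries, with a narrow range for Il33 and a wide one for Serpina3n.

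Complement genes were among them. Cfb, the protease of the alternative pathway of complement, was higher in members by 1.81, 1.35 and 1.08 in CLL and 1.74 and 1.16 in SHAM. Serping1, the inhibitor of the C1 proteases that start the classical pathway, was higher by 0.87, 0.78 and 0.69 in CLL and 1.27 and 0.76 in SHAM. An activator and an inhibitor of the cascade were both higher than in other gated fibroblasts. Serping1 was not higher than in the adventitial fibroblasts of every library: these held 459, 558 and 415 CPM in CLL and 511, 689 and 672 CPM in SHAM, against 422, 359 and 395 CPM in members of CLL and 646, 681 and 692 CPM in members of SHAM.

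The rest of the 20 steadiest genes had other roles. Hp encodes haptoglobin, a binder of free haemoglobin, and stood highest of them in CLL replicates 1 and 3 (log2 differences of 4.0 and 3.41). It met the required mean of 50 CPM through the CLL libraries alone. Members of SHAM replicates 1 and 2 held 9 and 3 Hp UMIs, and 1 cell held 34.6% of those in CLL replicate 1. Cp encodes the copper-carrying ferroxidase ceruloplasmin, Sod3 the extracellular superoxide dismutase, Steap4 a metalloreductase and Cyp1b1 a cytochrome P450. Prelp and Podn encode small leucine-rich proteoglycans, Svep1 a large adhesion protein of the matrix, Serpine2 another protease inhibitor and Fst the activin and myostatin binder follistatin. Dram1, Emb, Ms4a4d and Tmem176a, which encode membrane proteins, and Sfrp1 were also among the 20. The smallest log2 difference in any of the 5 libraries was 0.69 or more for each of the 20.

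Other genes were lower in members in all 5 libraries. Dlk1, an imprinted gene that holds back fat cell formation, had a log2 difference of -0.91 or lower in each library, Cdkn1c, a brake on the cell cycle, of -0.76 or lower, and Mest, another imprinted gene, of -0.72 or lower. The 18 IGF and imprinted genes together were lower in SHAM replicate 2 alone of the 5 libraries: they summed to 8637, 9002 and 8698 CPM in members of CLL and 8373, 7215 and 8153 CPM in their other gated fibroblasts, and to 11150 and 13140 CPM in members of SHAM replicates 1 and 2 and 11010 and 15580 CPM in their other gated fibroblasts. Ptn, the growth factor pleiotrophin, had log2 differences of -1.20, -2.11 and -1.43 in CLL and -1.08 and -0.72 in SHAM. Slc16a3, a lactate exporter, C1qtnf3, a C1q-related secreted protein, Nrk, a kinase gene, and Col12a1, a fibril-associated collagen, were also lower in all 5. The other two, C1qc and Ms4a7, are macrophage genes. Set against other gated fibroblasts with at least 4000 UMIs only, all 30 genes kept their direction.

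**Figure D2:**
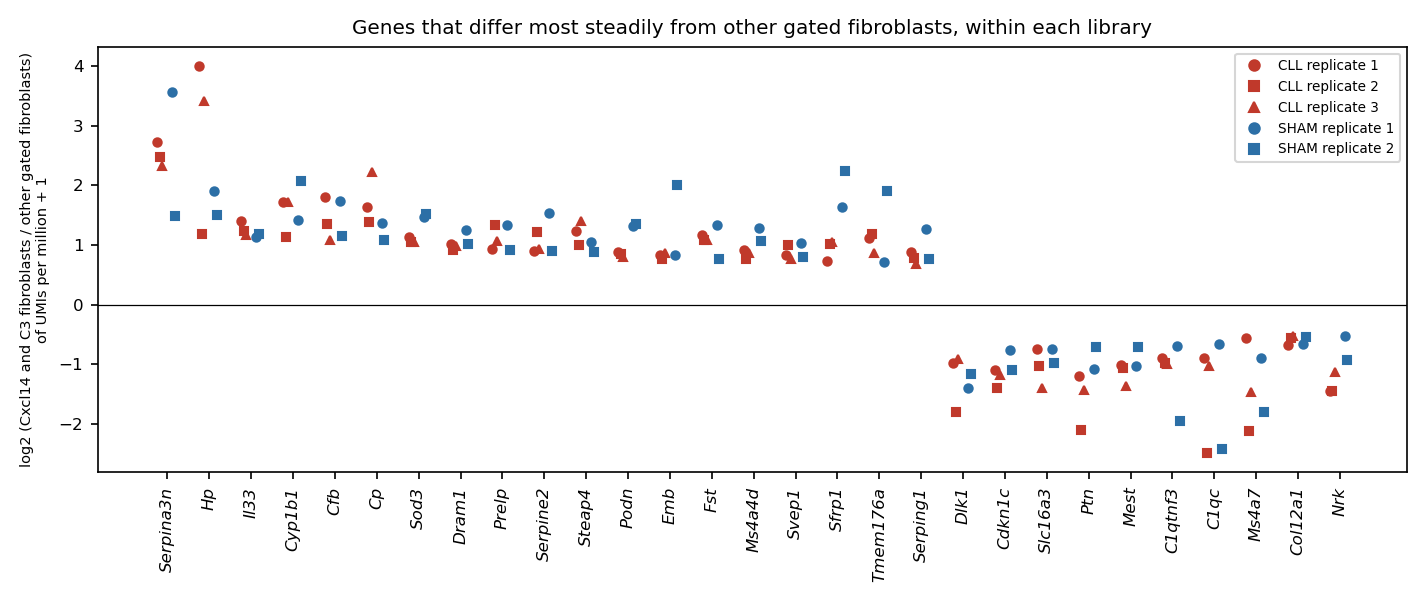
Log2 ratio of CPM plus 1 between Cxcl14 and C3 fibroblasts and other gated fibroblasts of the same library, for genes among the 20 with the highest minimum and the 10 with the lowest maximum over 5 libraries; each point is 1 library. Hp spreads widely, from 1.18 to 4.0, and Il33 lies between 1.14 and 1.40 in all 5.

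How these fibroblasts differed between CLL and SHAM mice was tested on counts summed per library. EdgeR tested 9749 genes and called 264 higher in CLL and 359 lower (6.39% in all, 2.71% higher and 3.68% lower; 1979 had an unadjusted p under 0.05). Of the lists tested, 9 of 11 activated fibroblast genes, 8 of 11 contractile genes and 13 of 25 glycolysis and hypoxia genes rose and none fell, and 10 of 18 IGF and imprinted genes, 8 of 15 basement membrane genes, 9 of 29 interferon genes and 7 of 10 interstitial fibroblast genes fell. The lists were chosen with earlier results of these data known, so their counts are a description. Without SHAM replicate 1 the counts were 160 higher and 191 lower (3.42%, with 1.56% higher and 1.86% lower), and 265 of the 351 calls were shared with the fit on 5 libraries. Folds are given on the log2 scale as CLL over SHAM, with a standard error after ±, and adjusted p-values come from edgeR's quasi-likelihood test with Benjamini-Hochberg adjustment over all genes tested.

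The cells of SHAM replicate 3, which took no part in the fit, were set beside these calls. Of the 264 genes called higher in CLL, 243 (92.0%) were lower in SHAM replicate 3 than in any CLL library, against 46.2% of all 9749 genes tested. Of the 359 called lower, 276 (76.9%) were higher there than in any CLL library, against 33.6% of all. Those 5 cells hold 190702 UMIs, so 1 UMI is 5.24 CPM and 861 tested genes are at 0 there. Single cells weigh heavily: 1 cell held 129 of 184 Cxcl1 UMIs, 183 of 278 of Cthrc1, 186 of 342 of Aspn, 36 of 57 of Dlk1, all 39 of Tagln and 25 of 28 of Acta2. In the other libraries 1 UMI is 0.396 to 0.558 CPM in CLL and 1.83 and 2.10 CPM in SHAM replicates 1 and 2.

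Chemokines went both ways. Ccl2, which draws monocytes out of the blood, was at 1194, 1210 and 955 CPM in CLL replicates 1 to 3, against 207 and 109 CPM in SHAM replicates 1 and 2 (log2 fold 2.84 ± 0.24, adjusted p = 4.16e-06). Ccl7, its neighbour in the same chemokine cluster, was at 460.5, 519 and 419.6 CPM in CLL and 115 and 164 CPM in SHAM (log2 fold 1.75 ± 0.22, adjusted p = 0.000121). Cxcl1, a neutrophil attractant, was at 1196, 1603 and 986 CPM in CLL and 491 and 685 CPM in SHAM (log2 fold 1.09 ± 0.24, adjusted p = 0.00995). All 3 parted the groups, and members of SHAM replicate 3 were at 15.7, 173 and 965 CPM, with Cxcl1 close to the lowest CLL library. Cxcl1 was not called without SHAM replicate 1 (0.81, adjusted p = 0.0766), nor without CLL replicate 1. Leukocyte barcodes also held Ccl2, at 596, 1035 and 406 CPM in CLL and 294, 349.7 and 262 CPM in SHAM. Whether that is free RNA or their own transcript, and what part free RNA has in the result, was not tested.

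Ccl11, the eosinophil attractant eotaxin, fell, at 59.8, 52.2 and 57.5 CPM in CLL and 112 and 172 CPM in SHAM (log2 fold -1.32 ± 0.23, adjusted p = 0.00193). Ccl8, another monocyte attractant, fell as well, at 20.8, 18.6 and 9.48 CPM in CLL and 104 and 46.1 CPM in SHAM (-2.18, adjusted p = 0.0005805), but was not called without SHAM replicate 1 (-1.55, adjusted p = 0.0571). The cytokine genes Il33 and Tslp completed the calls, both lower. Of 20 chemokine and cytokine genes tested, 3 were higher and 4 lower, with a median log2 fold of 0.22, where the median over all genes tested was -0.01, and 3 and 2 without SHAM replicate 1. Cxcl12, a chemokine of resting stroma, had 312, 244 and 286 CPM in CLL and 388 and 335 CPM in SHAM and did not pass (-0.35, adjusted p = 0.299). Il6, the inflammatory cytokine, did not pass either, at 104, 73.2 and 98.2 CPM in CLL and 104 and 92.2 CPM in SHAM (-0.09, adjusted p = 0.863).

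Complement genes other than C3, which the rule used, leaned down. C1s1, a protease of the classical pathway, was at 158, 138 and 147 CPM in CLL and 362 and 335 CPM in SHAM (log2 fold -1.23 ± 0.17, adjusted p = 0.000332). Serping1 was at 422, 359 and 395 CPM in CLL and 646 and 681 CPM in SHAM (-0.75, adjusted p = 0.0181). Both were lower in every CLL library than in any SHAM library, SHAM replicate 3 included, though Serping1 passed only without SHAM replicate 1 among the 5 fits that left out a library.

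C4b, which the classical pathway cleaves, rose, at 68.3, 103 and 66.95 CPM in CLL and 34.8 and 41.9 CPM in SHAM (1.07, adjusted p = 0.0308), and was not called without SHAM replicate 1 (0.86, adjusted p = 0.252) or when any CLL library was left out; reads of C4b and its near-identical copy C4a may not be told apart. Of 14 complement genes tested, 2 were higher and 6 lower (median -0.49), and 0 and 3 without SHAM replicate 1. Among the lower ones were C1qa, C1qb and C1qc, which macrophages make, and these were high in SHAM replicate 1 alone: C1qa was at 10.7, 9.496 and 7.25 CPM in CLL, against 362 and 12.6 CPM in SHAM replicates 1 and 2 and 15.7 CPM in SHAM replicate 3. The 13 macrophage markers summed to 137 to 148 CPM in CLL and to 3623, 103 and 283 CPM in SHAM replicates 1 to 3. Of 10 tested, 9 were lower in CLL, and without SHAM replicate 1 none of 11 was called. C7 held 1 UMI in all members and was not tested. Cfd, the other call that was higher, had 159 UMIs over the 3 CLL libraries and 0 in SHAM, at least 8.76-fold higher against a floor of 3 UMIs over SHAM replicates 1 and 2. In CLL replicate 1 all 25 of its UMIs lay in 1 cell and in CLL replicate 2 44 of 106 did, and without those cells 90 UMIs remain, at least 4.96-fold higher.

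Most tested genes of activated, matrix-remodelling fibroblasts rose. Lox, the enzyme that crosslinks collagen and elastin, was at 1264, 1261 and 1165 CPM in CLL and 456 and 421 CPM in SHAM (log2 fold 1.50 ± 0.19, adjusted p = 0.000116). Timp1, an inhibitor of matrix metalloproteases, was at 1038, 1405 and 1054 CPM in CLL and 320.4 and 216 CPM in SHAM (log2 fold 2.14 ± 0.22, adjusted p = 1.78e-05). Cthrc1, a secreted protein of scar-forming fibroblasts, was at 1005, 1247 and 1169 CPM in CLL and 602 and 398 CPM in SHAM (log2 fold 1.21 ± 0.20, adjusted p = 0.00138). In SHAM replicate 3 Lox was at 414 and Timp1 at 83.9 CPM, with the other SHAM libraries, while Cthrc1 was at 1458 CPM, above every CLL library. Of 11 genes on the list of activated fibroblasts that were tested, 9 were higher and none lower (median 0.99), and the count was also 9 without SHAM replicate 1. Tnc, Adam12, Ncam1, Col12a1, Ccn4 and Runx1 were the others.

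The elastic and matricellular list moved with them in part. Ccn5, a matricellular protein of the CCN family, was at 82.7, 73.6 and 94.8 CPM in CLL and 7.32 and 16.8 CPM in SHAM (log2 fold 2.83 ± 0.36, adjusted p = 0.000108). Thbs1, an activator of latent TGF-beta, was at 542, 805 and 520 CPM in CLL and 320.4 and 178 CPM in SHAM (log2 fold 1.34 ± 0.24, adjusted p = 0.002498). Sparcl1, a matrix protein of quiet stroma, went the other way, at 86.5, 60.1 and 69.7 CPM in CLL and 478 and 339.6 CPM in SHAM (log2 fold -2.49 ± 0.20, adjusted p = 4.16e-06). The groups did not overlap for any of these 3, and the fold of Ccn5 ran from 2.24 without SHAM replicate 1 to 3.62 without SHAM replicate 2. Of 29 tested, 11 were higher and 5 lower (median 0.36), and 8 and 6 without SHAM replicate 1. Of 14 crosslinking and hydroxylation genes, 4 were higher, Lox, Cthrc1 and the collagen prolyl hydroxylase subunits P4ha1 and P4ha2, and 1 was lower, Tgm2 (median 0.56), against 2 and 1 without SHAM replicate 1. P4ha2 was not called without SHAM replicate 1 (0.78, adjusted p = 0.157).

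Fibrillar and fibril-associated collagens split. Col12a1 rose, at 760.4, 793 and 778 CPM in CLL and 408 and 299.7 CPM in SHAM (log2 fold 1.15 ± 0.19, adjusted p = 0.00117), and Col6a3, Col14a1 and Col5a3 fell, with Col14a1 at 502, 423 and 456 CPM in CLL and 741 and 767 CPM in SHAM (-0.70, adjusted p = 0.0267), which passed only without SHAM replicate 1 among the fits that left out a library. The other 6 of the 10 tested were not called. Of 8 small leucine-rich proteoglycans tested, Aspn alone was called, at 1596, 1637 and 1349 CPM in CLL and 961 and 857 CPM in SHAM (0.76, adjusted p = 0.02299); SHAM replicate 3 was at 1793 CPM, above every CLL library, and Aspn was not called without SHAM replicate 1 (0.76, adjusted p = 0.05305) or when any CLL library was left out. Dcn and Lum, of the same family, were part of the rule: Dcn was at 1312, 1338 and 1422 CPM in CLL and 3335, 3523 and 5805 CPM in SHAM, and Lum at 623, 643 and 678 CPM in CLL and 1574, 1752 and 1515 CPM in SHAM. Both were lower in every CLL library than in any SHAM library.

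Contractile genes were among those with the largest differences. Tagln, an actin-binding protein of smooth muscle and myofibroblasts, was at 992, 1818 and 1060 CPM in CLL and 210.5 and 16.8 CPM in SHAM (log2 fold 3.52 ± 0.50, adjusted p = 0.000329). Acta2, smooth muscle actin, was at 471, 620 and 564 CPM in CLL and 154 and 23.1 CPM in SHAM (log2 fold 2.65 ± 0.38, adjusted p = 0.000336). Members of SHAM replicate 3 were at 204 CPM for Tagln and 147 CPM for Acta2. Both genes were higher in every CLL library than in any SHAM library. The size of the fold rests on the SHAM libraries: it was 6.18 for Tagln and 4.5 for Acta2 without SHAM replicate 1, and 2.73 and 1.97 without SHAM replicate 2.

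The difference lay in many cells. Acta2 had a UMI in 57 of 71, 115 of 155 and 79 of 100 members in CLL, and in 30 of 93, 5 of 25 and 3 of 5 in SHAM; members of SHAM replicate 1 are shallower, and those of SHAM replicate 2 are as deep as in CLL. The 13 contractile genes took a median of 0.347%, 0.381% and 0.372% of a member's UMIs in CLL and 0.167%, 0.120% and 0.112% in SHAM, and the middle 50% of members ran from 0.223% to 0.545% in CLL replicate 3 and from 0.0931% to 0.162% in SHAM replicate 2. Of 11 tested, 8 were higher and none lower (median 1.08), 7 without SHAM replicate 1. Mural cells, which wrap vessels and make the same proteins, were checked beside this. Over the 3 CLL libraries Ndufa4l2 held 2431 UMIs, Notch3 79, Cspg4 49, Rgs5 19, Abcc9 2, Myh11 1, Higd1b 1 and Kcnj8 0. Over SHAM replicates 1 and 2, which held fewer UMIs in all, they held 90, 27, 16, 193, 25, 9, 5 and 6. Notch3 was at 20.8, 7.12 and 12.3 CPM in CLL and 36.6 and 14.7 CPM in SHAM replicates 1 and 2. Cspg4 was at 5.87, 9.89 and 7.25 CPM in CLL and 21.97 and 8.38 CPM there, so both genes overlapped between the groups. Ndufa4l2 was higher in every CLL library than in any SHAM library. Rgs5, the pericyte gene, fell, at 0, 3.56 and 5.58 CPM in CLL and 309 and 50.3 CPM in SHAM (log2 fold -5.81 ± 0.59, adjusted p = 1.78e-05), and in SHAM replicate 2 all 24 of its UMIs came from 1 cell, while SHAM replicate 3 had none. Without SHAM replicate 1 the Rgs5 fold was -4.08. The 8 mural markers summed to 413, 485 and 325 CPM in CLL and 547, 151 and 52.4 CPM in SHAM, and the part of mural cells in the contractile result was not tested.

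**Figure D3:**
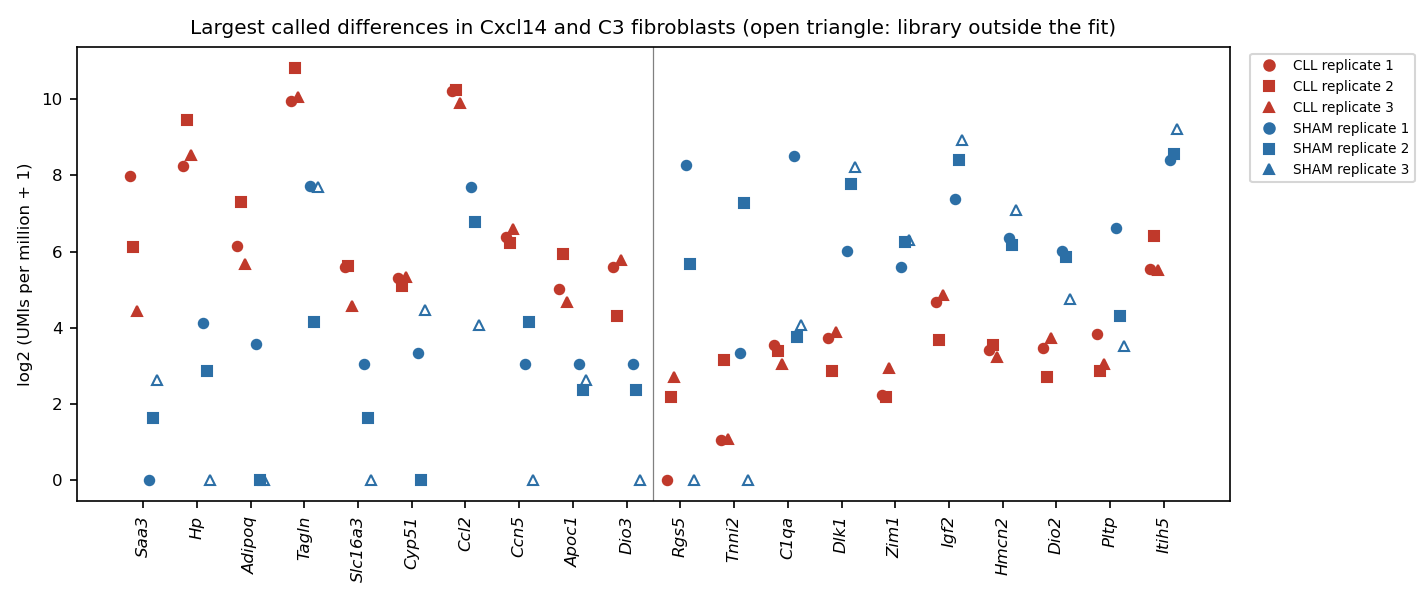
Log2 of CPM plus 1 in Cxcl14 and C3 fibroblasts for the 10 largest called differences in each direction among named genes that met 2 conditions. These were no overlap between the groups of the fit and a mean of at least 20 CPM. Each point is 1 library, CLL left of SHAM, and the open triangle is SHAM replicate 3, which was outside the fit. Ccl2 and Tagln are among the genes at high levels in CLL, C1qa is high in SHAM replicate 1 alone, and Tnni2 in SHAM replicate 2 alone.

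Many glycolytic enzymes rose. Pgk1, phosphoglycerate kinase, was at 316, 342 and 306 CPM in CLL and 76.9 and 90.1 CPM in SHAM (log2 fold 1.96 ± 0.21, adjusted p = 2.74e-05). Tpi1, triosephosphate isomerase, was at 301, 289 and 292 CPM in CLL and 86.04 and 83.8 CPM in SHAM (log2 fold 1.80 ± 0.20, adjusted p = 3.55e-05). Slc16a3, the lactate exporter of glycolytic cells, was at 47.5, 47.9 and 22.9 CPM in CLL and 7.32 and 2.096 CPM in SHAM, where it rests on 5 UMIs (log2 fold 3.02 ± 0.57, adjusted p = 0.00388, and 4.13 without SHAM replicate 1). For all 3 the SHAM libraries lay well under the CLL libraries, SHAM replicate 3 included, and Pkm, pyruvate kinase, did the same (log2 fold 1.67 ± 0.21, adjusted p = 0.000107).

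Of 25 glycolysis and hypoxia genes tested, 13 were higher and none lower (median 0.99), and 10 without SHAM replicate 1. The 26 genes of that list in the files summed to 4601, 4687 and 4581 CPM in CLL and 2133, 2272 and 2192 CPM in SHAM, a tight range within each group. The others called were Eno1, Gapdh, Ldha, Aldoa, Pfkl and Pgam1 of the glycolytic chain, Bnip3, which directs the removal of mitochondria, Egln1, an oxygen-sensing hydroxylase, and Ero1l, an oxidase of the endoplasmic reticulum. Many of these genes are textbook targets of the hypoxia-inducible factors, which bind the core ACGTG or GCGTG. That core, on either strand, was looked for in RefSeq promoter windows (build GRCm38.p6), 300 bases from 250 before to 50 after the start of a transcript, using the first window listed for each gene. It stood in 9 of the 12 called genes that had a window, in 19 of 25 genes of the whole list, and in 43.8% of all 32851 windows. The windows of the 3 genes described first are shown, with each match in capitals: Pgk1 at chrX:106186850-106187149 (plus strand), Slc16a3 at chr11:120948817-120949116 (plus strand) and Tpi1 at chr6:124814109-124814408 (minus strand). A match is a description of the letters only, and Tpi1, Aldoa and Pkm had none in this window.

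Pgk1: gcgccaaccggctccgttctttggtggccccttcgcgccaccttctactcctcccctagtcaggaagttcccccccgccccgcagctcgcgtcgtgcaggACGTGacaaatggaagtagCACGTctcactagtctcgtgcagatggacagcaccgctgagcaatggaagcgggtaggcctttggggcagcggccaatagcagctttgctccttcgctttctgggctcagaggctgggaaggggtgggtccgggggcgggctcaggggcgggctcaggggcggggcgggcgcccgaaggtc
Slc16a3: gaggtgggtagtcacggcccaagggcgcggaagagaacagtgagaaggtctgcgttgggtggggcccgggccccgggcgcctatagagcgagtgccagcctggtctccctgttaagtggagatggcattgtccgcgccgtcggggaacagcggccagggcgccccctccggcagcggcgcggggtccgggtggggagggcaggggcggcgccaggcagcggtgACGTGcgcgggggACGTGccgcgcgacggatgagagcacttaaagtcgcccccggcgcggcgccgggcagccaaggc
Tpi1: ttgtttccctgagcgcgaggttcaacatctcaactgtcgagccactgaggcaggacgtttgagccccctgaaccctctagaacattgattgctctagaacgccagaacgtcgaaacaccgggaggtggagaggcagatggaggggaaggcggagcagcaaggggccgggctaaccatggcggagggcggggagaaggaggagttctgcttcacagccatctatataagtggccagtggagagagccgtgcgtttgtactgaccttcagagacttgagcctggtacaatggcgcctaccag

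Some chaperone and sterol genes were also called higher. Manf, a stress-induced secreted factor, was at 466, 653 and 683 CPM in CLL and 232 and 233 CPM in SHAM (log2 fold 1.38 ± 0.21, adjusted p = 0.000699), and Hspa5, the main chaperone of the endoplasmic reticulum, at 1291, 1732 and 1338 CPM in CLL and 609.6 and 767 CPM in SHAM (log2 fold 1.07 ± 0.21, adjusted p = 0.00529). Of 20 genes of that list, 7 were higher and none lower (median 0.55), against 3 without SHAM replicate 1. Cyp51, an enzyme of cholesterol synthesis, was at 38.95, 33.2 and 39.05 CPM in CLL and 9.15 and 0 CPM in SHAM (log2 fold 2.92 ± 0.53, adjusted p = 0.00262); SHAM replicate 3 was at 20.98 CPM, nearer to CLL. With SHAM replicate 2 at 0 the size of the fold rests on 5 UMIs of SHAM replicate 1, and without SHAM replicate 2 it was 2.13. Of 17 genes of cholesterol synthesis 3 were higher, Cyp51, Sqle and Fdps (median 1.08), and 1 without SHAM replicate 1. Abca1, which exports cholesterol from cells, fell, at 22.9, 26.9 and 22.9 CPM in CLL and 130 and 85.9 CPM in SHAM (log2 fold -2.13 ± 0.23, adjusted p = 2.61e-05), with SHAM replicate 3 at 26.2 CPM, inside the CLL range.

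Acute-phase and fat-cell transcripts were high in CLL. Hp was at 302, 698 and 373 CPM in CLL and 16.5 and 6.29 CPM in SHAM (log2 fold 5.30 ± 0.45, adjusted p = 4.16e-06, and 6.1 without SHAM replicate 1), and it was at 0 in the 5 members of SHAM replicate 3. It was found in 26 of 71, 120 of 155 and 54 of 100 members in CLL, against 8 of 93 and 2 of 25 in SHAM replicates 1 and 2. Leukocyte barcodes also held Hp, at 26.8, 1127 and 61.5 CPM in CLL and 5.18, 8.57 and 1.54 CPM in SHAM, so in CLL replicate 2 the level in leukocyte barcodes was above that in members, while in CLL replicates 1 and 3 it was lower. What free RNA adds to the difference was not tested.

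Adipoq, the fat-cell hormone adiponectin, was at 69.9, 157 and 50.2 CPM in CLL and 10.98 and 0 CPM in SHAM (log2 fold 4.0 ± 0.70, adjusted p = 0.00211). With SHAM replicate 2 at 0 the fold rests on 6 UMIs of SHAM replicate 1, and it was 3.21 without SHAM replicate 2. It had a UMI in 13, 85 and 26 members of CLL replicates 1 to 3, and in 3, 0 and 0 of SHAM. Leukocyte barcodes held 4.27, 104 and 7.19 CPM in CLL and 0.158, 0.122 and 0.0857 CPM in SHAM, and other gated fibroblasts 0.159, 56.5 and 3.41 CPM in CLL and 0.519, 0 and 0 CPM in SHAM. The 7 adipocyte markers summed to 83.8, 252 and 66.4 CPM in CLL and 10.98, 4.19 and 0 CPM in SHAM. Over all CLL members Adipoq held 617 UMIs, Cfd 159, Car3 121, Plin1 8, Cidec 7, Adig 1 and Retn 1. Over members of SHAM replicates 1 and 2, which held fewer UMIs in all, Adipoq held 6, Car3 2 and the others 0. The part of fat-cell RNA in these results was not tested. Saa3, an acute-phase protein, was at 251, 69.2 and 20.6 CPM in CLL and 0 and 2.096 CPM in SHAM (edgeR adjusted p = 0.0144), with 1 UMI in SHAM replicates 1 and 2 together. Its ratio was 113 (95% counting interval 20.2 to 4457), 1 cell held 65.5% of its UMIs in CLL replicate 1, and without SHAM replicate 1 it was not called (adjusted p = 0.109). Ptx3, a soluble pattern-recognition protein, did not rest on single cells or on 1 library, at 182, 194 and 214 CPM in CLL and 53.1 and 44.02 CPM in SHAM (log2 fold 2.03 ± 0.22, adjusted p = 3.06e-05). Of 22 genes on the inflammation list, 4 were higher, Ptx3, Saa3, Nfkbia and Ier3, and 1 lower, the cytokine brake Socs3 (median 0.12), against 2 and 2 without SHAM replicate 1.

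Most genes of the IGF and imprinted list fell. Igf2, a fetal growth factor, was at 24.6, 11.9 and 27.9 CPM in CLL and 165 and 335 CPM in SHAM (log2 fold -3.58 ± 0.33, adjusted p = 5.56e-06). Dlk1 was at 12.3, 6.33 and 13.9 CPM in CLL and 64.1 and 218 CPM in SHAM (log2 fold -3.73 ± 0.43, adjusted p = 4.74e-05). Cdkn1c was at 160.1, 113 and 171 CPM in CLL and 536 and 895 CPM in SHAM (log2 fold -2.29 ± 0.24, adjusted p = 2.61e-05). SHAM replicate 3 was higher still for all 3, at 482, 299 and 1767 CPM, and Zim1, an imprinted zinc finger gene, showed the same order (log2 fold -3.72 ± 0.38, adjusted p = 1.78e-05). Leaving out SHAM replicate 1 put the Dlk1 fold at -4.44, and leaving out SHAM replicate 2 put it at -2.47 and that of Igf2 at -2.85. Dlk1 and Cdkn1c are also among the genes that stand lower in these cells than in other fibroblasts of the same library.

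Of 18 IGF and imprinted genes, 10 were lower and 1 higher, Igfbp2 (median -0.81), and 9 were lower and none higher without SHAM replicate 1. Mest, Peg3, Plagl1, Meg3, Igfbp3, Igfbp5 and Igfbp6 were the others lower. Igf1, a growth factor for muscle precursors and fibres, was not called, at 664, 743 and 776 CPM in CLL and 860.4 and 725 CPM in SHAM (-0.11, adjusted p = 0.785). The deiodinases parted: Dio3, which inactivates thyroid hormone, was higher, at 46.96, 18.99 and 54.1 CPM in CLL and 7.32 and 4.19 CPM in SHAM (2.75, adjusted p = 0.0158), though it passed only without CLL replicate 2 among the fits that left out a library (3.13, adjusted p = 0.082 without SHAM replicate 1). Dio2, which activates the hormone, was lower, at 10.1, 5.54 and 12.3 CPM in CLL and 64.1 and 56.6 CPM in SHAM (log2 fold -2.72 ± 0.33, adjusted p = 8.57e-05).

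Many basement membrane genes fell. Hmcn2, a large extracellular protein of tissue borders, was at 9.61, 10.7 and 8.37 CPM in CLL and 80.5 and 71.3 CPM in SHAM (log2 fold -2.96 ± 0.26, adjusted p = 4.63e-06). Col18a1, the collagen that yields endostatin, was at 33.6, 39.6 and 36.8 CPM in CLL and 89.7 and 122 CPM in SHAM (log2 fold -1.51 ± 0.23, adjusted p = 0.000679), and Nid2, a nidogen that links laminin to collagen IV, at 67.2, 73.6 and 81.5 CPM in CLL and 150.1 and 209.6 CPM in SHAM (log2 fold -1.27 ± 0.21, adjusted p = 0.00123). Of 15 tested, 8 were lower and none higher (median -0.91), and the count was also 8 without SHAM replicate 1. Lama2 and Lamc1, which encode laminin chains, Nid1, Agrn and Col15a1 were the others. Among inhibitors and carriers of the matrix, Itih5, which binds hyaluronan, was at 45.4, 84.3 and 45.2 CPM in CLL and 337 and 377 CPM in SHAM (log2 fold -2.59 ± 0.24, adjusted p = 5.56e-06). Adamts4, a protease of proteoglycans, fell too, at 48.6, 55 and 37.9 CPM in CLL and 123 and 149 CPM in SHAM (log2 fold -1.51 ± 0.22, adjusted p = 0.000443).

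Most tested genes of interstitial stroma fell. Apod, a lipid carrier of quiet fibroblasts, was at 248, 247 and 224 CPM in CLL and 727 and 799 CPM in SHAM (log2 fold -1.67 ± 0.18, adjusted p = 2.61e-05). Smoc2, a matricellular protein, was at 371, 245 and 336 CPM in CLL and 629.7 and 819.6 CPM in SHAM (log2 fold -1.19 ± 0.22, adjusted p = 0.00278). Gdf10, a secreted factor of the TGF-beta family that marks resident muscle stroma, was at 4.803, 8.71 and 5.58 CPM in CLL and 38.4 and 39.8 CPM in SHAM (log2 fold -2.55 ± 0.37, adjusted p = 0.000403). SHAM replicate 3 lay near the other SHAM libraries for Apod and Smoc2 (713 and 760.3 CPM), while Gdf10 was at 0 in its 5 cells. Of 10 genes on the interstitial fibroblast list, 7 were lower and none higher (median -1.12), and 8 without SHAM replicate 1.

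Of 11 tested genes that are commonly found with Cxcl14 in muscle stroma, 6 were lower and none higher (median -0.84), Lpl, Col15a1, Crispld2, Abca8a, Gdf10 and Smoc2, and 5 without SHAM replicate 1. Lpl, the lipase that frees fatty acids from lipoproteins, was at 220.4, 246 and 202 CPM in CLL and 507 and 384 CPM in SHAM (log2 fold -0.98 ± 0.18, adjusted p = 0.00263). The receptor gene Pdgfra, named after its values were seen, fell as well (log2 fold -1.20 ± 0.19, adjusted p = 0.00102). Ptn did not pass (631, 245 and 540.1 CPM in CLL and 772 and 1084 CPM in SHAM; -0.98, adjusted p = 0.0615), but did without SHAM replicate 1 (-1.26, adjusted p = 0.0202). Hsd11b1, which activates glucocorticoids, did not pass, at 21.9, 34.03 and 29.01 CPM in CLL and 25.6 and 12.6 CPM in SHAM (0.57, adjusted p = 0.396). Of 6 adventitial genes tested apart from those of the rule, Anxa3 was higher and Ly6c1 lower.

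Interferon-response genes fell in part. The list as a whole, 35 genes, summed to 3274, 2814 and 3936 CPM in CLL and 3687, 4467 and 4111 CPM in SHAM, with overlap. Its median share of a member's UMIs overlapped too, at 0.298%, 0.256% and 0.361% in CLL and 0.336%, 0.257% and 0.431% in SHAM. Rsad2, an antiviral enzyme also called viperin, was at 1.07, 1.58 and 2.23 CPM in CLL and 20.1 and 41.9 CPM in SHAM (log2 fold -4.17 ± 0.54, adjusted p = 0.000139), resting on 10 UMIs in CLL; in SHAM replicate 2, 1 cell held 17 of 20 UMIs, and without that library the fold was -3.46. Iigp1, an interferon-inducible GTPase, was at 25.6, 23.7 and 50.2 CPM in CLL and 84.2 and 128 CPM in SHAM (log2 fold -1.68 ± 0.32, adjusted p = 0.00364). Stat2, which carries the signal of type I interferon to the nucleus, was at 14.4, 11.1 and 16.2 CPM in CLL and 32.95 and 48.2 CPM in SHAM (log2 fold -1.54 ± 0.33, adjusted p = 0.00941). The groups of the fit did not overlap for these 3, but Rsad2 was at 0 in SHAM replicate 3, and Iigp1 and Stat2 were not called without SHAM replicate 2. Isg15 was not called, at 68.3, 28.9 and 86.5 CPM in CLL and 56.8 and 90.1 CPM in SHAM (-0.26, adjusted p = 0.757), nor were Ifit3 (-1.09, adjusted p = 0.0842) and Irf7 (-1.01, adjusted p = 0.0855), both on the lower side, though Ifit3 was called without SHAM replicate 1 (-1.58, adjusted p = 0.02895), where Ifit3 and its near-identical copy Ifit3b may share reads.

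Of 29 genes on the list, 9 were lower and none higher (median -0.77), and 7 without SHAM replicate 1; Gbp3, Gbp7, Oasl2, Irf1, Irf9 and Xaf1 were the others. The interferon response element, a pair of GAAA with any 2 bases between them, was looked for on either strand in the same way. It stood in 4 of the 8 called genes that had a window, in 17 of 28 genes of the whole list, and in 3.44% of all windows. Stat2 at chr10:128270248-128270547 (plus strand) and Rsad2 at chr12:26456403-26456702 (minus strand) are shown, with matches in capitals, as genes described above that had a window.

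Stat2: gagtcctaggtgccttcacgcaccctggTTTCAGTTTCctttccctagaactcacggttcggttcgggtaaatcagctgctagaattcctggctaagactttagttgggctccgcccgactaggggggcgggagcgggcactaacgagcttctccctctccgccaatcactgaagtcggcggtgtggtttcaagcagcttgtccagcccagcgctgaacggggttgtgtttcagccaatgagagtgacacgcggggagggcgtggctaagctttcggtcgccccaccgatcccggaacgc
Rsad2: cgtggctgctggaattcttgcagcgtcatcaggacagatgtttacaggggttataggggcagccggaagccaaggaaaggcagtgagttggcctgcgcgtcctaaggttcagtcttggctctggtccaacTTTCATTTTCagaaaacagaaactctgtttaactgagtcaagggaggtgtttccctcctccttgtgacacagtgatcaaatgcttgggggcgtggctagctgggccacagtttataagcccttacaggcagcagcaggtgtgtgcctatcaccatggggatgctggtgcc

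The remaining lists are given by their counts. Of 14 MHC class I genes, 1 was lower, H2-Q4, which shares sequence with its neighbours. Of 12 Wnt modulators tested, 2 were lower, Dkk2 (-1.41, adjusted p = 0.00627), which was not called without SHAM replicate 1 (-1.38, adjusted p = 0.0637) and was at 0 in SHAM replicate 3, and Tcf7l2 (-0.82, adjusted p = 0.0124), which was not called without SHAM replicate 2 or without CLL replicates 1 or 3. Of 28 TGF-beta and BMP genes, 3 were lower, Gdf10, Bmp5 and Ltbp4, and 1 higher, the pathway brake Smad7. Of 18 immediate-early genes, 1 was higher, Btg2, against 3 without SHAM replicate 1, and of 16 DNA replication genes tested 1 was lower, Ccnd1, which was not called without SHAM replicate 1 (-0.75, adjusted p = 0.584). Of 22 proteases and inhibitors, 2 were higher, Timp1 among them, and 4 lower, against 3 and 2 without SHAM replicate 1. Of 16 adipogenic and lipid genes, 6 were lower, Abca1, Cd36, Lpl, Gpx3, Apod and Abcg1, and Angptl4 higher (median -0.50), and 4 were lower and 3 higher without SHAM replicate 1, whose members held a sum of 7793 CPM of this list, against 2836 CPM in SHAM replicate 2. Apoc1, a lipoprotein component, was higher (2.75, adjusted p = 0.00829), and Pltp, a phospholipid transfer protein, lower (-2.71, adjusted p = 0.00162), and Pltp was not called without SHAM replicate 1 (-1.16, adjusted p = 0.402).

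**Figure D4:**
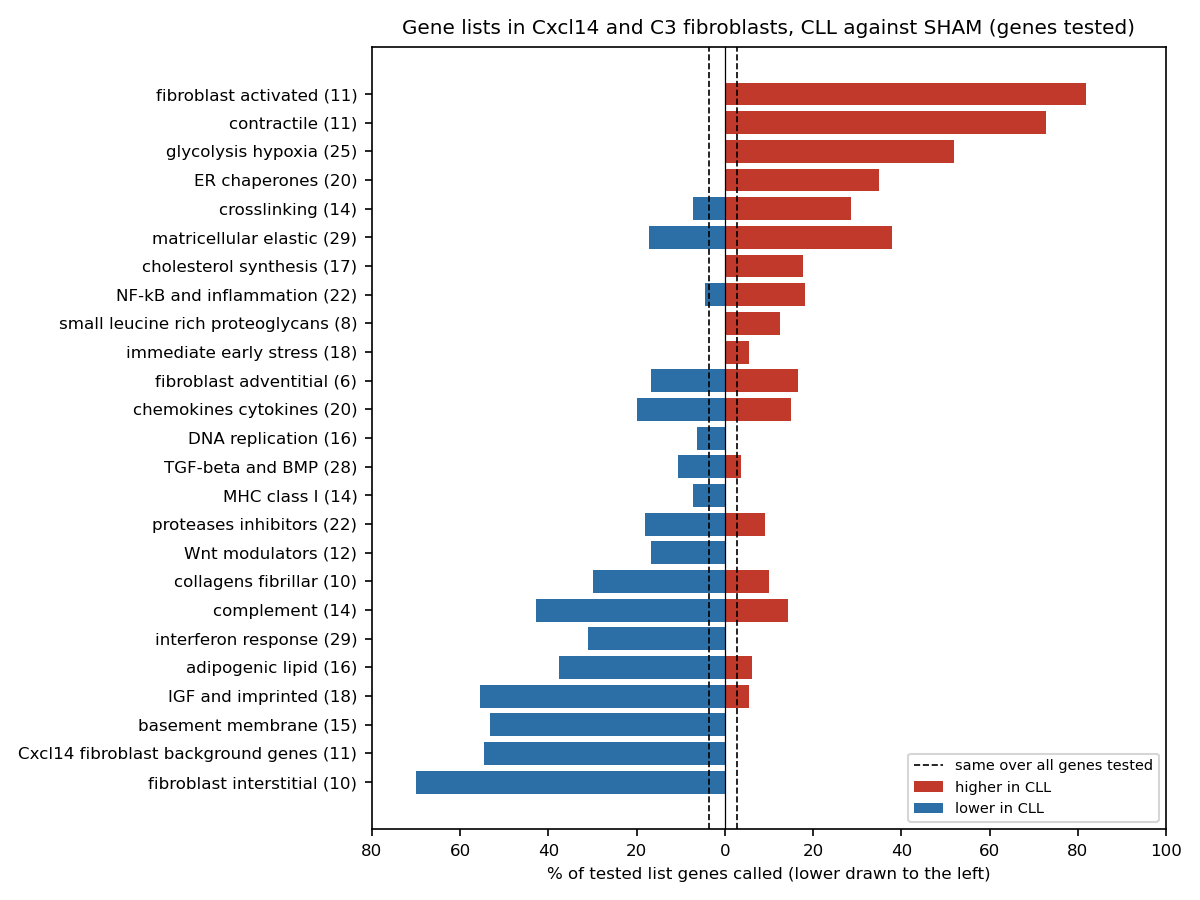
Percent of the tested genes of each list called higher in CLL (to the right) and lower in CLL (to the left) in Cxcl14 and C3 fibroblasts, with the number tested in brackets; dashed lines mark the share over all genes tested, 2.71% higher and 3.68% lower. Activated, contractile and glycolytic lists stand furthest right, and interstitial, basement membrane and imprinted lists furthest left. The lists were chosen with earlier results of these data known.

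Some calls came from a single cell or library. Acta1, a fast-fibre actin, and Tnni2, a fast-fibre troponin, were called lower in CLL, but in SHAM replicate 2 1 cell held 96.7% of the Acta1 UMIs and 91.9% of the Tnni2 UMIs. The 8 myofibre markers summed to 26.7, 266 and 44.6 CPM in CLL and 91.5, 2419 and 10.5 CPM in SHAM. The 9 endothelial markers summed to 12.3, 19.8 and 13.95 CPM in CLL and 430.2, 20.96 and 5.24 CPM in SHAM, with Tie1 at 0 in CLL, and the reporter Tomato stood at 39.5, 41.9 and 34.6 CPM in CLL and 209, 39.8 and 31.5 CPM in SHAM. Lymphocyte and neutrophil markers summed to at most 2.13 CPM in CLL and to 110 CPM in SHAM replicate 1. The tendon genes Scx and Comp were higher in CLL (2.17, adjusted p = 0.01898 and 1.82, adjusted p = 0.000103), in cells chosen for having no Tnmd, and Comp in SHAM replicate 3 was at 199 CPM, inside the CLL range, with 36 of 38 UMIs in 1 cell. The 8 tendon markers summed to 2630, 2601 and 2602 CPM in CLL and 1757, 1377 and 2695 CPM in SHAM, with overlap. Fmod overlapped too, at 107, 114 and 161 CPM in CLL and 110, 48.2 and 136 CPM in SHAM. Chodl went the other way, at 0, 1.19 and 0 CPM in CLL and 14.6, 6.29 and 0 CPM in SHAM. The part of these transcripts in the results was not tested beyond leaving out SHAM replicate 1.

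Whether the CLL difference in these cells is unlike that in other fibroblasts was asked with a population-by-treatment term, with the library as a block. Other gated fibroblasts, tested alone on 6 libraries, had 842 genes higher and 989 lower of 13489 (13.6%, with 6.24% higher and 7.33% lower). The term called 11 of 11312 genes (0.0972%), 6 with a more positive effect in members (0.053%) and 5 with a more negative one (0.0442%; 692 at an unadjusted p under 0.05). Sfrp1 was one: it was called higher in CLL among other gated fibroblasts (log2 fold 1.57 ± 0.18, adjusted p = 0.00241) and not in members (log2 fold 0.25 ± 0.25, adjusted p = 0.635), and the difference between the effects was -1.07 (adjusted p = 0.0121). Sfrp1 in members of SHAM replicate 2 was as high as in CLL, 1 of its 25 cells held 187 of the 355 UMIs, and without that library the member fold was 0.95 and was called. These comparisons share libraries, so no overlap between them is given.

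Acta2 differed the other way, with a larger rise in members (2.65) than in other gated fibroblasts (1.21), a difference of 1.37 (adjusted p = 0.00982). Gpx3, a secreted glutathione peroxidase, fell in members (-0.69, adjusted p = 0.0443, called only without SHAM replicate 1 among the fits that left out a library) and had a log2 fold of 0.50 in other gated fibroblasts, a difference of -1.08 (adjusted p = 0.00184). Ltbp2 and Col11a1, which encode a microfibril protein and a fibrillar collagen, rose in other gated fibroblasts (1.83 and 1.07) and were not called in members (0.71 and 0.11), though Ltbp2 was without SHAM replicate 2. Col4a1 and Col4a2, the common collagen IV chains, fell in other gated fibroblasts (-1.24 and -1.15) and were not called in members (-0.37 and -0.40), though they were without CLL replicate 2.

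Apoe, Trf and H2-D1 were also among the 11. Apoe, a lipoprotein component abundant in macrophages, was at 1028, 2599 and 1135 CPM in CLL and 3474, 302 and 456 CPM in SHAM, where SHAM replicate 1 alone is high; its fold was -0.18 with that library and 2.32 without it (adjusted p = 0.000987). Trf, the iron carrier transferrin, was at 171, 399 and 243 CPM in CLL and 134, 10.5 and 31.5 CPM in SHAM. The set changed when 1 library was left out. Without CLL replicate 1 the term called 8 genes, and 6 of them were among the 11. The size of the set also rests on single SHAM libraries, since leaving out SHAM replicate 1 or 2 leaves 1 SHAM library and changed it.

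**Figure D5:**
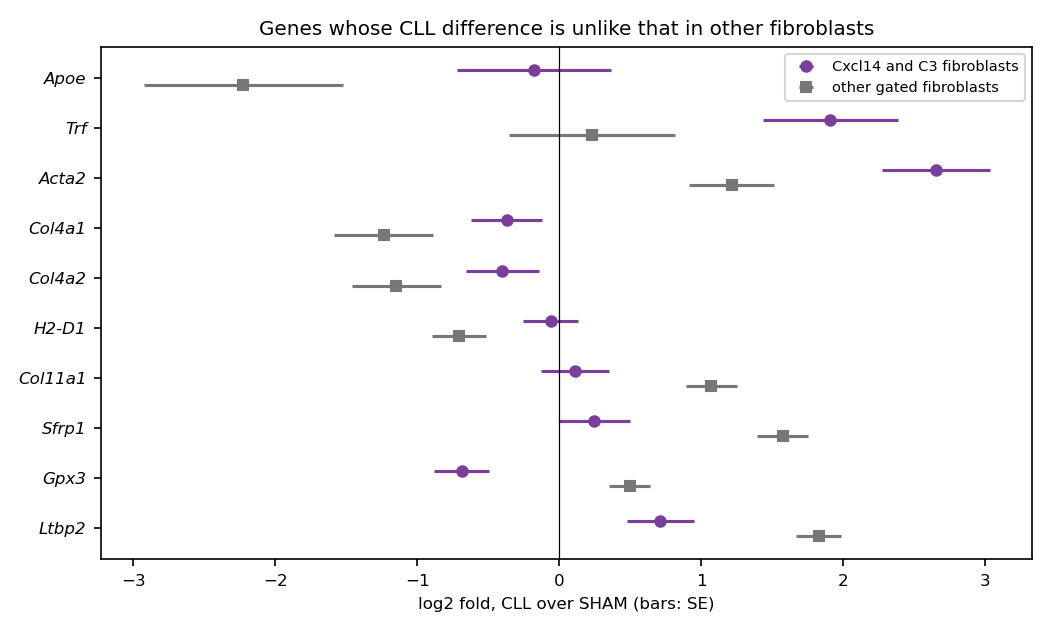
Log2 fold of CLL over SHAM with its standard error in Cxcl14 and C3 fibroblasts (5 libraries) and in other gated fibroblasts (6 libraries) for genes among the 11 whose effect differed between them. Acta2 and Trf lie further right in the chosen cells, and Sfrp1, Gpx3, Ltbp2 and Col11a1 further left.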

How the data were processed

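Per the labels, cells from quadriceps digested with dispase and collagenase and cleared over Ficoll were made into Chromium 3' version 3.1 libraries. The authors deposited raw counts (UMIs per gene and barcode) from Cell Ranger 6.1.2 on build mm10, per the file headers for the software and the submitters' processing notes for the build; the labels do not say how barcodes were selected. The members and gene lists were chosen with earlier results of these data known. Counts were summed per library over members, other gated fibroblasts, or both, and tested with edgeR 4.0.16 in R 4.3.3 (TMM, filterByExpr, quasi-likelihood, group as the only term, or population and its interaction with group beside a library block, Benjamini-Hochberg at 0.05), for libraries with at least 10 members; genes of the rule and mitochondrial genes were set aside before adjustment. Shares were compared by exact permutation over mice, and cells were thinned without replacement. DESeq2 1.42.0 was an alternative, and scripts were tested on simulated data. Doublets were not removed except in an alternative that took the highest Scrublet scores (scanpy 1.11.5). Members held 1792347 to 2527413 UMIs per CLL library and 477084 and 546266 in the SHAM libraries tested. Genes named were up to 10 per direction with the largest fold among calls without overlap and a mean of at least 20 CPM, up to 3 per list with the smallest p, a fixed set of 25, and for the description the steadiest genes of at least 50 CPM; some genes within a list are named as its calls, and a few genes that enter the fits and counts are not reported here.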

Additional observations from a re-analysis of the deposited data

Results flagged for a closer look

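Genes whose CLL effect in Cxcl14 and C3 fibroblasts differed from that in other gated fibroblasts, by the edgeR interaction term, are given with the difference on the log2 scale, members minus others. It was positive for Apoe (2.78, adjusted p = 2.39e-05), Trf (2.06), Acta2 (1.37), Col4a1 (1.11), Col4a2 (0.94) and H2-D1 (0.77). It was negative for Ltbp2 (-1.15), Gpx3 (-1.08), Sfrp1 (-1.07) and Col11a1 (-1.0). The largest adjusted p among them was that of H2-D1 (0.0364), and reads of H2-D1 may be shared with other class I genes.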

How the results depend on the processing

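The share of Cxcl14 and C3 fibroblasts among gated fibroblasts could not pass in any alternative, since 0.10 was the smallest p that 3 against 3 allows; leaving out 1 library moved its difference between -0.15 (without SHAM replicate 3) and 4.85 points (without SHAM replicate 2). Against 623 calls in these fibroblasts, there were 1080 with no filter on low counts, 415 with DESeq2, 230 with members drawn down to 2000 UMIs, 1604 where 2 of the 3 genes sufficed, and 265 (without CLL replicate 1) to 658 (without SHAM replicate 2) with 1 library left out. The replicate numbers were not used to pair the mice. With group means taken off, same-numbered libraries correlated at -0.279 to -0.00545, which with so few libraries cannot exclude a shared batch. A replicate block gave 296 calls. The interaction gave 60 with no filter and 8 to 67 with 1 library left out. Other gated fibroblasts had 418 to 1818 calls with 1 library left out. Alternatives chosen after seeing the data were the fit with SHAM replicate 3, the 5 libraries for other fibroblasts, all gated fibroblasts together (455 to 2006 calls with 1 library left out), 2 of 3 genes without SHAM replicate 1 (1265 calls), and the gate at full depth with 3 genes at 2000 UMIs.

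Of 102 named genes in the fit, 77 passed and 46 of these passed in all 5 fits with 1 library left out. Log2 folds changed sign in genes that mostly did not pass. With 1 library left out they ran from -0.21 to 0.95 for Sfrp1, -0.22 to 0.053 for Il6, -0.65 to 0.21 for Isg15, -4.79 to 0.52 for C1qc, -1.01 to 2.32 for Apoe, -0.31 to 0.67 for Col11a1 and -0.21 to 0.15 for H2-D1. With 2 of 3 genes and without SHAM replicate 1, folds were 0.59 for C1qa, 0.60 for C1qc and 1.35 for Apoe. Doublet removal gave 0.49 for Apoe, -0.044 for Col11a1 and 0.16 for H2-D1. Apoe was at 0.64 with the replicate block and 0.17 with SHAM replicate 3, Il6 at 0.01 with SHAM replicate 3, and H2-D1 at 0.023 with no filter. The cause was not tested. With 5 to 93 members per SHAM library, 1 UMI is worth 1.83 to 5.24 CPM there, which limits genes of low level.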
